A study of Mus musculus with 70 samples.

Results

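Gene expression in the entorhinal area (ENT) of the adult mouse brain was set against 2 cortical regions of the executive system, namely the frontal pole (FRP) and the anterior cingulate area (ACA). The comparison took 9 of the 70 libraries of the series, chosen by their region labels alone: 3 from ENT, 3 from ACA and 3 from FRP, with both reference regions weighted equally. All 9 came from untreated mice at P56, labelled C57BL/6 and given as C57BL/6NTac males in the study's methods, with no transgene or deletion in any group. RNA was taken by punch biopsy from frozen coronal sections, and each library pooled tissue of several mice. The replicate error therefore describes pools, not single mice. In a punch, fewer cells of a type and less RNA per cell cannot be told apart. The study placed ACA and FRP among its regions of energy balance and ENT among additional regions thought to have no direct part in it.

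The entorhinal area lies at the border between neocortex and hippocampus. Its superficial layers send the main cortical input to the hippocampus, and its deep layers return hippocampal output to the cortex. It lacks the granular layer 4 of sensory neocortex, and neurons of its layer 2 include reelin-positive stellate cells and calbindin-positive pyramidal cells. ACA and FRP belong to the frontal cortex, which is concerned with action selection and cognitive control. The position of a cortical area is set during development by graded transcription factors, with COUP-TF proteins high at the caudal and temporal side and fibroblast growth factors at the frontal side.

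The 9 libraries held between 15173723 and 20647884 estimated counts, and mitochondrial genes took between 5.7% and 13.5% of TPM. The highest mitochondrial share was that of ENT replicate 3. Across the 15307 genes tested, the median SD of log2(TPM + 0.5) between replicates was 0.225 in ENT, 0.191 in FRP and 0.131 in ACA. ENT replicate 3 was also the library least like the other ENT libraries, with Pearson's r across genes, which are not independent replicates, of 0.960 and 0.958 to ENT replicates 1 and 2, whereas those had an r of 0.965 to each other. The FRP libraries carried markers of the olfactory bulb, which adjoins the frontal pole: the summed TPM of 8 such markers was 141.5, 126.3 and 698.6 in FRP replicates 1, 2 and 3, between 38.1 and 55.8 in ENT and between 17.8 and 18.5 in ACA. The libraries of each region were spread over several collection batches, and ENT and FRP were collected in the same batches. Which library came from which batch is not given in the sources used here, so no value was computed within a batch and the part of the batches in the differences was not tested.

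Expression is given as TPM, a share of all transcripts in a library that is corrected for transcript length. A gene entered the test if at least 3 of the 9 libraries reached 1 TPM. It was called when its log2 difference, on the log2(TPM + 0.5) scale, was above 1 or below -1 with an adjusted p under 0.05 in limma, and "higher" and "lower" are used of such genes only. On this scale the change of genes near 0 TPM is understated. ENT differed from the mean of ACA and FRP in 516 of 15307 genes, or 3.37%. Of these, 205 genes (1.34%) were higher and 311 genes (2.03%) were lower in ENT. Without the requirement on size, 1511 genes had an adjusted p under 0.05.

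Among the 205 higher genes, 185 had all 3 ENT libraries above all 6 reference libraries, and 28 stayed under 1 TPM in each reference library. Among the 311 lower genes, 285 had all 3 ENT libraries below all 6 reference libraries, and 67 stayed under 1 TPM in each ENT library. These 28 and 67 genes passed the filter only through the side on which they were high, so their calls are given as descriptions. Over all tested genes, 4.41% had the ENT libraries above and 10.2% had them below all reference libraries. The median log2 difference of all tested genes was -0.079. After scaling by median ratios in place of TPM, 48.7% of the called genes were higher, against 39.7% here, and with edgeR on the estimated counts the share was 52.2%, so that the balance between higher and lower genes rests on the scaling. The 22 genes with a log2 difference beyond 2.5 in either direction that were not called all carry predicted, clone or pseudogene symbols.

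**Figure D1:**
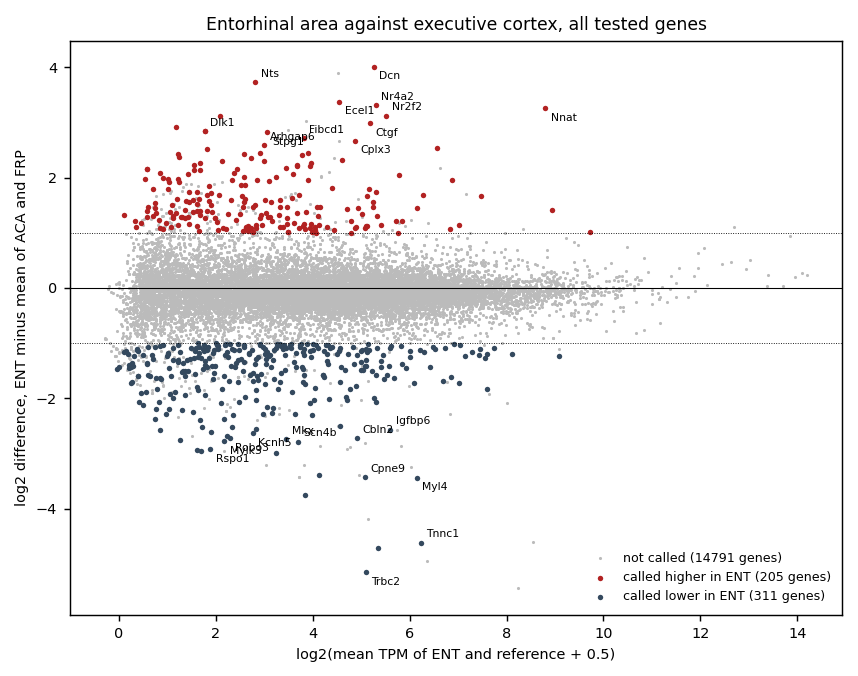
Each point is 1 of the 15307 genes tested, with the mean level on the x axis as log2(TPM + 0.5) and the log2 difference of ENT from the mean of ACA and FRP on the y axis. Red points are the 205 genes called higher and dark points the 311 genes called lower in ENT, dotted lines mark differences of 1 and -1, and the leading genes are named, from Dcn at 4.01 to Trbc2 at -5.16.

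Dcn, Nr4a2, Ctgf and Cplx3, all among the leading higher genes, are known from the deepest cortical layer, 6b, or from the claustrum. Dcn encodes decorin, a small proteoglycan of the extracellular matrix (GRCm38 chromosome 10, 97479609 to 97518143). Its level was 67.8, 104 and 43.1 TPM in ENT, 4.2, 2.11 and 6.35 TPM in ACA and 2.44, 5.65 and 3.17 TPM in FRP. All ENT libraries lay far above all reference libraries, and the ratio of mean levels was 18 (log2 difference 4.01, SE 0.362, adjusted p = 0.000231). Nr4a2, which encodes the nuclear receptor Nurr1 (chromosome 2, 57106830 to 57124003), reached 64.6, 108 and 39.2 TPM in ENT, 6.54, 13.7 and 2.57 TPM in ACA and 10.8, 3.3 and 5.73 TPM in FRP. The lowest ENT library was well above the highest reference library, that of ACA replicate 2 (log2 difference 3.31, SE 0.5, adjusted p = 0.00302). For Ctgf, a matricellular growth factor gene and a classic marker of layer 6b, the level was 69.6, 80.2 and 40.6 TPM in ENT, 4.93, 9.53 and 5.08 TPM in ACA and 5.93, 9.44 and 10.7 TPM in FRP. The groups did not overlap (log2 difference 2.99, SE 0.28, adjusted p = 0.00026). Cplx3, encoding a complexin that controls the release of synaptic vesicles (chromosome 9, 57599992 to 57606281), stood at 64.5, 59.2 and 28.1 TPM in ENT, 7.28, 6.93 and 8.44 TPM in ACA and 8.03, 6.92 and 5.17 TPM in FRP. Here too the groups were apart, with a ratio of means of 7.09 (log2 difference 2.67, SE 0.25, adjusted p = 0.00026). For each of these 4 genes ENT replicate 3 had the lowest of the ENT values, and the mean of ENT was the highest among the 18 adult regions of the series. The next highest region was the nucleus accumbens (ACB) for Ctgf, with a mean of 26.5 TPM, and for Cplx3, with 18.5 TPM, the arcuate nucleus (ARH) for Dcn, with 67.1 TPM, and the ventral tegmental area (VTA) for Nr4a2, with 41.9 TPM. For Dcn the ENT mean of 71.7 TPM was close to that of ARH, and ENT replicate 3 was below it.

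Nr2f2, Nts and Nnat were also among the leading higher genes. Nr2f2 encodes COUP-TFII, a nuclear receptor of the caudal and temporal cortex and of interneurons (chromosome 7, 70351944 to 70366735). Its level was 94.8, 63.01 and 86.3 TPM in ENT, 9.3, 6.79 and 9.52 TPM in ACA and 5.6, 18.3 and 7.32 TPM in FRP. The ENT mean was 8.59 times the reference mean with no overlap (log2 difference 3.12, SE 0.313, adjusted p = 0.00039). Nts, the gene of the peptide neurotensin (chromosome 10, 102481756 to 102490486), was measured at 11.3, 13.8 and 12.5 TPM in ENT, 0.58, 0.09 and 0.2 TPM in ACA and 0.85, 0.27 and 1.38 TPM in FRP. The reference libraries were near 0, and only FRP replicate 3 exceeded 1 TPM (log2 difference 3.73, SE 0.305, adjusted p = 0.000129). Nnat encodes neuronatin, a small imprinted membrane protein (chromosome 2, 157560078 to 157562522), and was the most abundant of the 12 leading higher genes, at 806, 909 and 681 TPM in ENT, 50.5, 44.2 and 91.2 TPM in ACA and 160.1, 66.9 and 141 TPM in FRP. The lowest ENT library lay far above the highest reference library, FRP replicate 1 (log2 difference 3.26, SE 0.295, adjusted p = 0.000231). In the hypothalamic ARH the mean of Nnat was 2520 TPM, so that the level in ENT was not the highest of the series and ranked 4 of 18 regions. For Nts, ENT ranked 7, and the lateral hypothalamic area was highest at 58.1 TPM. For Nr2f2 it ranked 5, and the ventromedial hypothalamic nucleus was highest at 136 TPM.

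The other 5 of the 12 leading higher genes were Ecel1, Dlk1, Stpg1, Fibcd1 and Arhgap6, with log2 differences between 2.59 and 3.38. In Stpg1 and Fibcd1 the ENT mean was again the highest of the 18 adult regions. ENT ranked 4 for Arhgap6 and 10 for Ecel1, with the highest means in ARH, at 29.7 and 432 TPM. For Dlk1 it ranked 12, and VTA was highest at 177 TPM. Ecel1 encodes a metallopeptidase of neurons and had the largest SE of the 12, with 35.4, 21.4 and 67.1 TPM in ENT, 10.2, 7.46 and 1.4 TPM in ACA and 1.61, 4.53 and 0.82 TPM in FRP. All ENT libraries were above the references (log2 difference 3.38, SE 0.6, adjusted p = 0.00694), but the call was lost when ENT replicate 3 and FRP replicate 3 were both left out, with a log2 difference of 2.74 and an adjusted p of 0.0614. Fibcd1, a receptor of acetylated sugars also known from hippocampal area CA1, was measured at 27.1, 35.2 and 10.3 TPM in ENT, 2.59, 2.39 and 2.81 TPM in ACA and 4.93, 2.31 and 2.53 TPM in FRP. The lowest ENT library, replicate 3, was still above the highest reference library, FRP replicate 1 (log2 difference 2.72, SE 0.354, adjusted p = 0.00136). Dlk1, an imprinted gene for a Notch-like ligand, was measured at 6.23, 5.24 and 5.06 TPM in ENT, 0.58, 0.21 and 0.36 TPM in ACA and 0.22, 0.42 and 0.27 TPM in FRP. A second gene name in the deposited table holds identical values in all 70 libraries, so the level of Dlk1 is uncertain. It passed the filter through the ENT libraries alone and was not tested when any of them was left out, so its difference of 2.84 is given as a description.

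**Figure D2:**
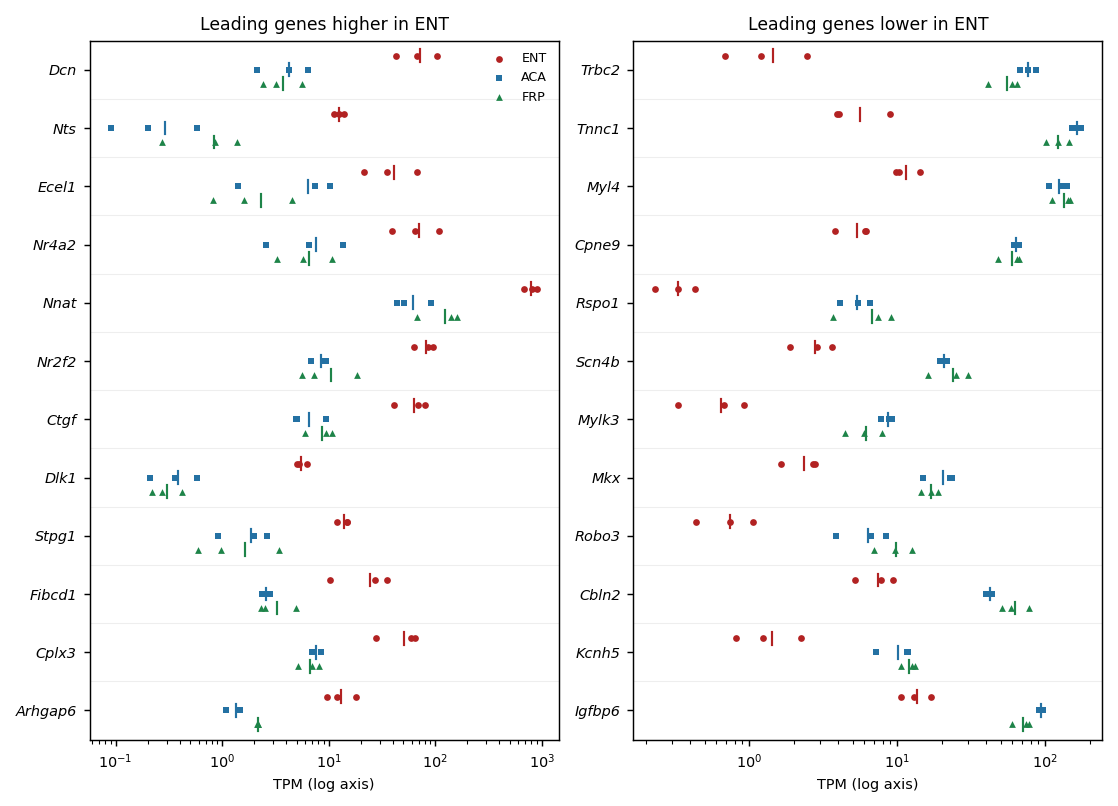
TPM on a log axis for the 12 genes with the largest positive (left) and the 12 with the largest negative (right) log2 difference in ENT, with 1 point per library and a short line at each region's mean. In each of the 24 genes the 3 ENT points (red circles) stand apart from the 6 points of ACA (blue squares) and FRP (green triangles), as the rule for these genes required.

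The largest difference among the called genes was that of Trbc2, the constant segment of the T cell receptor beta chain, whose transcripts are also known from neurons of the deep neocortical layers (chromosome 6, 41546730 to 41548352). Its level was 1.2, 2.46 and 0.69 TPM in ENT, 67.2, 86.8 and 75.95 TPM in ACA and 41.2, 59.2 and 64.7 TPM in FRP. ENT was close to 0 and the ratio of the reference mean to the ENT mean was 45.5 (log2 difference -5.16, SE 0.26, adjusted p = 1.23e-05). Tnnc1, the slow skeletal and cardiac troponin C (chromosome 14, 31208312 to 31211729), was measured at 3.9, 4.02 and 9.01 TPM in ENT, 175, 151 and 166 TPM in ACA and 123, 144 and 101 TPM in FRP. The highest ENT library, replicate 3, lay far below the lowest reference library (log2 difference -4.62, SE 0.232, adjusted p = 1.23e-05). Myl4, an atrial myosin light chain (chromosome 11, 104550663 to 104595753), had 10.2, 14.2 and 9.89 TPM in ENT, 139.9, 127 and 106 TPM in ACA and 112, 147 and 141 TPM in FRP. ACA and FRP overlapped and ENT was 11.3-fold lower (log2 difference -3.44, SE 0.147, adjusted p = 1.1e-05). Mylk3, a myosin light chain kinase of the heart, was at 0.93, 0.33 and 0.68 TPM in ENT, 8.84, 9.26 and 7.76 TPM in ACA and 6, 7.88 and 4.47 TPM in FRP, which put all ENT libraries under 1 TPM (log2 difference -2.78, SE 0.222, adjusted p = 0.000126). It passed the filter through the reference libraries alone.

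Cpne9 encodes a copine, a membrane-binding protein that responds to calcium (chromosome 6, 113282307 to 113305627). It was measured at 3.81, 6.13 and 6.03 TPM in ENT, 61.8, 61.5 and 66.4 TPM in ACA and 64.8, 66.99 and 47.9 TPM in FRP. The difference of ENT from both references was far larger than the spread within a region (log2 difference -3.43, SE 0.161, adjusted p = 1.23e-05). Cbln2, a secreted organizer of synapses that binds neurexins, had 7.8, 9.39 and 5.15 TPM in ENT, 43.4, 43.2 and 39.6 TPM in ACA and 50.9, 77.4 and 58.4 TPM in FRP. FRP had the highest values, ACA lay between, and ENT was lowest without overlap (log2 difference -2.73, SE 0.183, adjusted p = 6.36e-05). Igfbp6, which binds insulin-like growth factors (chromosome 15, 102144362 to 102149511), was at 10.7, 13.03 and 16.9 TPM in ENT, 90.9, 96.4 and 95.5 TPM in ACA and 77.6, 74.4 and 59.99 TPM in FRP, with ENT below both references (log2 difference -2.57, SE 0.14, adjusted p = 1.48e-05). The log2 differences of the remaining genes were -2.93 for the Wnt potentiator Rspo1, -2.79 for the sodium channel subunit Scn4b, -2.74 for the homeobox gene Mkx, -2.73 for the axon guidance receptor Robo3 and -2.63 for the potassium channel Kcnh5. Rspo1 did not exceed 0.43 TPM in any ENT library, while each reference library was at 3.68 TPM or more, so it passed the filter through the reference libraries alone. Every one of the 24 leading genes was called against ACA alone and against FRP alone as well, which share the ENT libraries, and all 24 kept their call in each fit with 1 library left out in which they were tested.

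A list of 16 genes known from entorhinal or retrohippocampal neurons was set beside the ENT label. It was chosen with earlier results of these data known, so it is no independent check of the label. All 16 genes reached 1 TPM in at least 1 ENT library. Their summed level was 885 to 950 TPM in ENT, 672 to 733 TPM in ACA and 669 to 702 TPM in FRP, so the groups did not overlap. Of the 16 genes, 5 were higher in ENT, 2 were lower and 9 were not called, with a median log2 difference of 0.66 against -0.079 for all tested genes, and 43.8% of the list was called against 3.37% of all. Beside Nr2f2, the higher genes were Ndst4, Cbln4, Nos1 and Trps1. Trps1, a zinc finger repressor, was measured at 12.3, 9.42 and 8.45 TPM in ENT, 3.27, 2.89 and 3.64 TPM in ACA and 4.84, 3.91 and 4.78 TPM in FRP, and the groups did not overlap (log2 difference 1.27, SE 0.156, adjusted p = 0.00102). Ndst4, an enzyme of heparan sulfate synthesis, was at 18.7, 13.5 and 13.6 TPM in ENT, 0.82, 1.12 and 0.88 TPM in ACA and 18.9, 2.44 and 9.31 TPM in FRP. The log2 difference was 3.44 against ACA, where it was called, and 0.92 against FRP, where it was not and where FRP replicate 1 exceeded all ENT libraries (log2 difference 2.18, SE 0.467, adjusted p = 0.0173). The lower genes were Igfbp6, named above, and Kctd16.

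Reln, the marker of layer 2 stellate cells, was measured at 113, 92.8 and 101 TPM in ENT, 40.05, 41.5 and 42.6 TPM in ACA and 48.1, 51.02 and 124 TPM in FRP. FRP replicate 3 exceeded all ENT libraries, and the difference was under the size threshold (log2 difference 0.95, SE 0.257, adjusted p = 0.0463). That library also had the highest summed level of olfactory bulb markers, 698.6 TPM. The part of bulb tissue in its Reln level was not tested. Calb1, the marker of layer 2 pyramidal cells, had 134, 158 and 189 TPM in ENT, 121, 93.5 and 92 TPM in ACA and 159, 113 and 43.8 TPM in FRP, with overlap and no call (log2 difference 0.71, SE 0.331, adjusted p = 0.221). Wfs1, found in the same layer, was at 122, 137 and 135 TPM in ENT, 98.9, 94.2 and 118 TPM in ACA and 82.6, 75.4 and 58.5 TPM in FRP, above all references but at a small size (log2 difference 0.61, SE 0.121, adjusted p = 0.0122). When each library was left out in turn, between 2 and 7 of these genes were higher: 2 without ENT replicate 1, and 3 without ACA replicate 1, ENT replicate 2 or ENT replicate 3. Of the 5 genes, Nr2f2 and Trps1 kept the call in all 9 of these fits. Kctd16 was not called in 5 of them, those without ACA replicate 1 or 3, ENT replicate 3, or FRP replicate 1 or 2, where its log2 difference was -0.82 to -0.98, and 1 gene was then lower.

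On 2 lists of layer genes, those of deep layers were mostly higher and those of upper layers mostly lower where they were called. Trbc2, lower in ENT and also known from deep layers as said above, was not on the deep layer list. Of 23 deep layer genes, 7 were higher and 1 was lower in ENT, with a median log2 difference of 0.38. Of 14 upper layer genes, none was higher and 4 were lower, with a median of -0.41, and the median over all tested genes was -0.079. The share called was 34.8% and 28.6%, against 3.37% of all tested genes. Like the other lists, both were chosen with earlier results of these data known. Their shares are therefore descriptions and no independent support for a layer pattern. At an adjusted p under 0.05 without the size threshold, 7 deep layer genes had a positive and 4 had a negative difference. No upper layer gene had a positive and 5 had a negative difference. The absence of higher upper layer genes rests on the scaling and on 1 library: 1 such gene was called higher with edgeR on the estimated counts, with median-ratio scaling, and without FRP replicate 3.

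The higher deep layer genes were Nr4a2, Ctgf, Cplx3, Nxph4, Ntsr1, Sulf1 and Moxd1, most of them known from layer 6b or layer 6. Nxph4, a neurexophilin that binds alpha-neurexins and another layer 6b marker, was at 8.64, 11.96 and 8.93 TPM in ENT, 0.48, 0.39 and 0.58 TPM in ACA and 3.81, 1.62 and 7.22 TPM in FRP. It was under 1 TPM in all ACA libraries, varied widely in FRP, and was highest in ENT without overlap (log2 difference 2.35, SE 0.342, adjusted p = 0.00261). Against FRP alone it was not called. Of the 18 adult regions ENT ranked 14 for this gene, and the cerebellar nuclei had the highest mean, 93.6 TPM. Sulf1, a sulfatase that acts on heparan sulfate, was not called without ACA replicate 2, ENT replicate 1 or ENT replicate 2. Moxd1, a monooxygenase gene, had 11.3, 9.45 and 10.4 TPM in ENT, 3.97, 4.03 and 3.78 TPM in ACA and 4.01, 3.57 and 3.51 TPM in FRP, with tight groups that did not overlap (log2 difference 1.33, SE 0.123, adjusted p = 0.000256). Of other genes known from layers 5 and 6, the log2 difference was -0.18 for Fezf2, 0.00 for Foxp2, -0.42 for Tbr1 and 0.61 for Bcl11b, none of them called. Deptor, an inhibitor of mTOR signalling, was the lower gene, at -1.07, and was not called without ENT replicate 3 (log2 difference -0.81) or FRP replicate 3 (-0.99). Without ENT replicate 2 or FRP replicate 2, 2 deep layer genes were lower. The summed level of the 23 genes was 1025, 1158 and 712.2 TPM in ENT, so that ENT replicate 3 lay within the range of the references, 712.1 to 880.4 TPM.

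Among the lower upper layer genes, Lamp5, a membrane protein of superficial neurons and of an interneuron class, had 109, 97.5 and 123 TPM in ENT, 260.2, 227 and 233 TPM in ACA and 242, 316 and 170.5 TPM in FRP, without overlap (log2 difference -1.11, SE 0.168, adjusted p = 0.00301). Pou3f2, which encodes the factor Brn2, was at 5.2, 4.34 and 4.66 TPM in ENT, 10.99, 10.2 and 11.6 TPM in ACA and 12.5, 17.2 and 12.5 TPM in FRP (log2 difference -1.30, SE 0.135, adjusted p = 0.000448). Rspo1, known from layer 4, and Inhba were the other lower genes. Inhba lost its call without ENT replicate 2, at a log2 difference of -1.48 and an adjusted p of 0.0593. Cux2 and Rorb, standard markers of layers 2 to 4, were not called, with log2 differences of -0.42 and -0.59.

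**Figure D3:**
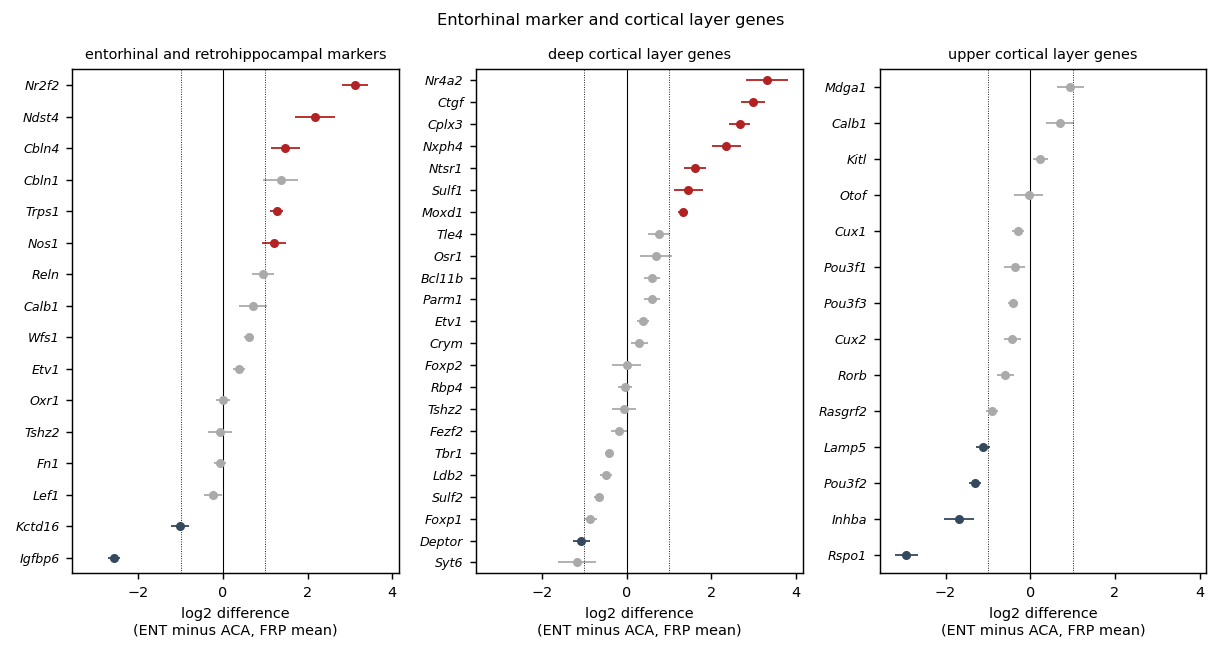
Log2 difference of ENT from the mean of ACA and FRP with its standard error for each tested gene of 3 lists: entorhinal markers (16), deep layer genes (23) and upper layer genes (14). Red points were called higher, dark points called lower and grey points were not called, and dotted lines mark 1 and -1. The 7 higher deep layer genes reach from 1.33 (Moxd1) to 3.31 (Nr4a2), and the 4 lower upper layer genes from -1.11 (Lamp5) to -2.93 (Rspo1).

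Genes of cortical area patterning were described by 2 lists. Of 13 genes linked to frontal cortex, 4 were lower in ENT and none was higher, with a median log2 difference of -0.65, and 30.8% of the list was called against 3.37% of all tested genes. Fgf17, a growth factor of the frontal patterning center, was low everywhere, at 0.25, 0.3 and 0.47 TPM in ENT, 4.04, 2.98 and 2.67 TPM in ACA and 1.2, 1.41 and 1.37 TPM in FRP. ACA had the highest values and ENT the lowest, without overlap (log2 difference -1.64, SE 0.217, adjusted p = 0.00149). Fgf17 passed the filter through the reference libraries alone. Meis2, a homeobox gene, had 127, 83.7 and 116 TPM in ENT, 182, 152 and 179.5 TPM in ACA and 480.0, 196 and 466 TPM in FRP, with FRP replicates 1 and 3 far above all others (log2 difference -1.19, SE 0.267, adjusted p = 0.0208). Against FRP alone Meis2 was called, at a log2 difference of -1.72, but against ACA alone it was not (-0.67, adjusted p = 0.228). Its call in the main comparison was lost without ENT replicate 2 (adjusted p = 0.0787) or ENT replicate 3 (0.0602). Sp8, which is on this list and on that of olfactory bulb markers, had 13.91, 2.23 and 17.22 TPM in FRP. It did not exceed 0.53 TPM in ENT or 0.4 TPM in ACA. The part of bulb tissue in the differences of this list was not tested. Efna5, a ligand of Eph receptors, lost its call without ENT replicate 3, where the log2 difference was -0.90. Without that library 2 of the 13 genes were lower, Cbln2 and Fgf17. Of 9 tested genes of the caudal and temporal side, 1 was higher, Nr2f2, or 11.1%. Its relative Nr2f1, which encodes COUP-TFI, was at 81.03, 89.7 and 88.1 TPM in ENT, 71.6, 81.6 and 82.3 TPM in ACA and 105, 87.03 and 60.7 TPM in FRP, with overlap and no call (log2 difference 0.10, SE 0.15, adjusted p = 0.726).

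Of 33 tested interneuron genes, 3 were higher and 2 were lower, and the median log2 difference was -0.06. The share called was 15.2%, against 3.37% of all tested genes. Sst, the gene of somatostatin, was the most abundant of those called, at 1063, 1166 and 1138 TPM in ENT, 637, 660.0 and 589.5 TPM in ACA and 543, 485 and 454 TPM in FRP. The groups were well separated, and the difference of 1.01 was close to the size threshold (log2 difference 1.01, SE 0.082, adjusted p = 0.000127). It fell below that threshold in 3 of the 9 fits with 1 library left out, those without ACA replicate 3, ENT replicate 2 or FRP replicate 3, where it was 0.98 to 0.99. Pvalb, parvalbumin, was at 26.6, 31.4 and 18.3 TPM in ENT, 60.7, 59.1 and 53.9 TPM in ACA and 41.5, 61.01 and 47.1 TPM in FRP (log2 difference -1.09, SE 0.172, adjusted p = 0.00382). It was not called without ENT replicate 3, where the log2 difference was -0.87. Gad1 and Gad2, which make GABA, and Slc32a1, which loads it into vesicles, were not called, with log2 differences of -0.39, -0.01 and -0.06. The other calls, Nos1 and Cort higher and Lamp5 lower, are of genes that mark interneuron classes, and both Nos1 and Cort lost the call in 6 of the 9 left-out fits. No interneuron gene was higher without ENT replicate 2, and 1 was without ACA replicate 1, ACA replicate 3, ENT replicate 3 or FRP replicate 2. Without ENT replicate 3, 1 was lower.

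Most receptor and channel genes of the next 4 lists were not called: the share called was 14.3% for GABA receptors, 12.3% for HCN and potassium channels, 6.9% for sodium and calcium channels and 7.14% for glutamate transmission, against 3.37% of all tested genes. Of 14 tested GABA receptor genes, 2 were lower and none was higher, with a median of -0.34. Gabrd encodes the delta subunit of extrasynaptic receptors and was measured at 17.9, 19.2 and 16.1 TPM in ENT, 48.4, 45.7 and 48.1 TPM in ACA and 58.3, 48.3 and 42.5 TPM in FRP. ENT was below both references without overlap (log2 difference -1.42, SE 0.111, adjusted p = 0.000118). Gabrg3 was the other, at a log2 difference of -1.19. Of 57 HCN and potassium channel genes, 6 were lower and 1 was higher, with a median of -0.26, and at an adjusted p under 0.05 alone 16 had a negative and 2 a positive difference. Kcnq5, a channel of the M-current, had 19.4, 17.6 and 15.9 TPM in ENT, 45.3, 38.7 and 45.05 TPM in ACA and 38.3, 47.3 and 34.4 TPM in FRP, without overlap (log2 difference -1.21, SE 0.12, adjusted p = 0.00037). Together with Kcnh5, 3 more of the lower genes, Kcnh1, Kcnh4 and Kcnh7, belong to the ether-a-go-go family. Kcnh4 lost its call without ENT replicate 1 (log2 difference -0.96), and Kcnab3, an auxiliary subunit, without FRP replicate 3 (-0.97). The higher gene, Kcnn3, lost its call without ACA replicate 2, ENT replicate 1, ENT replicate 2 or FRP replicate 2, at log2 differences of 0.89 to 0.97. Of 29 sodium and calcium channel genes, Scn4b and Cacna1i were lower, and Cacna1i lost its call without ENT replicate 3 (log2 difference -0.98). Of 28 tested glutamate transmission genes, Grm2 and Slc17a8 were lower, and neither was called without ENT replicate 3, while 1 gene of this list was higher without FRP replicate 3.

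Neuropeptides were called in both directions. Of 26 tested neuropeptide genes, 5 were higher and 3 were lower, or 30.8% against 3.37% of all tested genes, with a median of -0.01. Nts was the leading higher gene, and the other 4, Sst, Cort, Pnoc and Rln1, had log2 differences between 1.01 and 1.06. When libraries were left out in turn, 1 to 5 genes were higher, with Nts alone without ENT replicate 2, 2 without FRP replicate 3, and 3 without ACA replicate 1, ACA replicate 3 or FRP replicate 2. With a block for the replicate number, 3 were higher. Without ENT replicate 3, 5 were lower. Adcyap1 encodes the peptide PACAP and was measured at 6.9, 5.65 and 7.18 TPM in ENT, 47.7, 50.2 and 39.2 TPM in ACA and 33.3, 39.8 and 29.7 TPM in FRP. ENT was far below both references (log2 difference -2.50, SE 0.132, adjusted p = 1.33e-05). Pdyn, the precursor of dynorphins, had 6.25, 6.72 and 4.98 TPM in ENT, 23, 25.1 and 24.2 TPM in ACA and 16.1, 21.3 and 14.9 TPM in FRP, again without overlap (log2 difference -1.70, SE 0.14, adjusted p = 0.000135). Kiss1 was listed at 0, 0.34 and 0.28 TPM in ENT, 3.57, 4 and 3.02 TPM in ACA and 2.48, 3.06 and 1 TPM in FRP, with ENT replicate 1 at 0 (log2 difference -2.20, SE 0.311, adjusted p = 0.00215). It passed the filter through the reference libraries alone. No value from its estimated counts is given, since its matched transcripts did not give the gene's TPM. Cck, which encodes cholecystokinin and had the highest mean of this list in the references, was at 713, 795 and 811 TPM in ENT, 1203, 1844 and 1307 TPM in ACA and 1387, 1432 and 932 TPM in FRP, below all references but short of the size threshold (log2 difference -0.78, SE 0.168, adjusted p = 0.0176). Npy and Vip were not called, with log2 differences of 0.05 and -0.19.

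Of 29 tested neuropeptide receptor genes, 6 were higher and 2 were lower, or 27.6% against 3.37% of all tested genes, with a median of 0.19. Ntsr1, the high-affinity receptor of neurotensin, was higher together with its ligand and had 8.24, 8.28 and 9 TPM in ENT, 1.85, 2.14 and 2.43 TPM in ACA and 3.3, 1.48 and 4.36 TPM in FRP. The groups did not overlap (log2 difference 1.61, SE 0.256, adjusted p = 0.00398). Trhr, the receptor of thyrotropin-releasing hormone, was at 8.65, 7.34 and 7.52 TPM in ENT, 1.65, 1.54 and 1.55 TPM in ACA and 0.62, 1.1 and 3.14 TPM in FRP, the second highest mean of the 18 adult regions after ACB (log2 difference 2.08, SE 0.317, adjusted p = 0.00312). Npy2r, a presynaptic receptor of neuropeptide Y, had 5.06, 4.48 and 5.42 TPM in ENT, 1.61, 1.02 and 1.15 TPM in ACA and 3.14, 1.18 and 1.02 TPM in FRP (log2 difference 1.51, SE 0.284, adjusted p = 0.00895). Tacr3 and Crhr2 passed the filter through the ENT libraries alone, with ENT values up to 2.47 TPM and 2.5 TPM. Oxtr, the oxytocin receptor, was at 10.8, 9.59 and 12.7 TPM in ENT, 3.44, 3.18 and 4.08 TPM in ACA and 11.7, 2.64 and 3.86 TPM in FRP, where FRP replicate 1 lay within the ENT range and the adjusted p was 0.0499, just under the threshold. Its call was lost in 8 of the 9 left-out fits. The lower genes, Crhr1 and Oprd1, receptors of corticotropin-releasing hormone and of enkephalins, lost their calls without ENT replicate 3, with a log2 difference of -0.87 for each, and Crhr1 also without FRP replicate 3 (-0.96). For receptors with a role in energy balance, the log2 difference was 0.07 for Lepr, -0.38 for Mc4r, 0.01 for Insr, 0.36 for Mchr1 and -0.11 for Npy1r, none called. Without ENT replicate 1, 2 or 3, 3 receptors were higher, and Tacr3 and Crhr2 then failed the filter.

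The adrenergic receptors were split between subtypes. Adra2a, an inhibitory receptor, was measured at 22, 22.4 and 30.1 TPM in ENT, 2.73, 3.59 and 4.09 TPM in ACA and 13.98, 4.65 and 4.04 TPM in FRP. All ENT libraries were above all references, of which FRP replicate 1 was the highest (log2 difference 2.26, SE 0.331, adjusted p = 0.00264). Adra1b, a receptor that acts through calcium release, had 10.9, 10.6 and 11.8 TPM in ENT, 55.8, 59.2 and 50.01 TPM in ACA and 28.9, 34.03 and 28.03 TPM in FRP. ENT was the lowest, FRP was between and ACA was the highest, with no overlap of any pair (log2 difference -1.83, SE 0.101, adjusted p = 1.48e-05). Adra1d was lower too, at -1.38, but without ENT replicate 3 its log2 difference was -0.98 and it was not called. Of 33 tested monoamine and acetylcholine receptor genes, 6 were higher and 4 were lower, or 30.3% against 3.37% of all tested genes, with a median of -0.07. Serotonin receptors also went both ways, with Htr2c, Htr4 and Htr5b higher and Htr2a lower. Htr4 passed the filter through the ENT libraries alone and was not tested without any of them. Htr2c lost its call in 5 of the 9 left-out fits, and Htr5b without ENT replicate 1. Htr2a was at 12.2, 12.7 and 8.62 TPM in ENT, 34.4, 24.4 and 27.8 TPM in ACA and 17.6, 27.1 and 21.7 TPM in FRP (log2 difference -1.14, SE 0.176, adjusted p = 0.00325), and its log2 difference without ENT replicate 3 was -0.98. Without ENT replicate 1, 2 of the 33 genes were higher, and without ENT replicate 3, 1 was lower.

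The dopamine receptor genes Drd1 and Drd2 were higher in ENT. Drd1 was at 9.52, 9.93 and 8.27 TPM in ENT, 3.77, 3.59 and 4.33 TPM in ACA and 3.61, 3.65 and 4.34 TPM in FRP, without overlap (log2 difference 1.15, SE 0.134, adjusted p = 0.000746). Drd2 had 2.6, 3.2 and 1.97 TPM in ENT, 0.96, 0.78 and 0.55 TPM in ACA and 0.34, 0.78 and 1.2 TPM in FRP (log2 difference 1.30, SE 0.28, adjusted p = 0.0176), and was not called without ENT replicate 1 or ENT replicate 2. Both also belong to a list of 11 striatal markers, of which 3 were higher (27.3%), the third being Syndig1l, with a median log2 difference of 0.63. The summed level of this list was 222 to 328 TPM in ENT, 121 to 136 TPM in ACA and 152 to 218 TPM in FRP, against 4260 to 5660 TPM in the ACB libraries of the same series. Within the list, Adora2a was at 0.97, 3.7 and 0.98 TPM in ENT, 2.3, 2.1 and 1.52 TPM in ACA and 2.94, 2.4 and 2.5 TPM in FRP, with overlap and no call (log2 difference -0.40, SE 0.334, adjusted p = 0.501), and Rgs9 and Pde10a overlapped as well. At an adjusted p under 0.05 alone, 5 of the 11 markers had a positive and none had a negative difference, and 5 were higher in ENT against ACA alone. In ACB, Drd1 had a mean of 139 TPM, Drd2 of 145 TPM and Adora2a of 204 TPM.

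**Figure D4:**
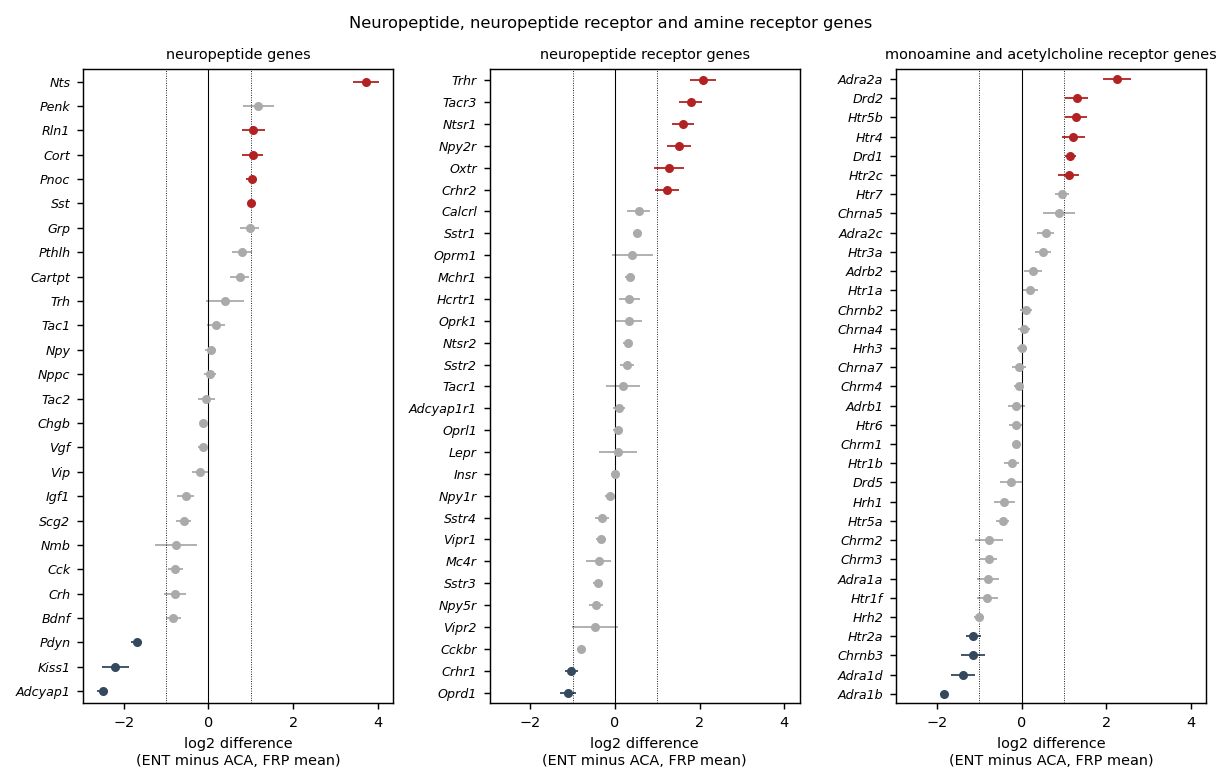
Log2 difference of ENT from the mean of ACA and FRP, with its standard error, for 26 neuropeptide genes, 29 neuropeptide receptor genes and 33 receptor genes for monoamines and acetylcholine. Red points were called higher and dark points lower, and grey points were not called. Each list has calls on both sides of 0, from Nts (3.73) to Adcyap1 (-2.50) among the peptides and from Adra2a (2.26) to Adra1b (-1.83) among the amine receptors.

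Of 29 tested cerebellin, neurexin and synaptic adhesion genes, 4 were higher and 1 was lower, or 17.2% against 3.37% of all tested genes. Cbln4 was among the higher and Cbln2 was the lower. Cbln4 was at 14.2, 21.8 and 6.68 TPM in ENT, 3.03, 3.16 and 2.76 TPM in ACA and 3.69, 7.14 and 8.55 TPM in FRP (log2 difference 1.47, SE 0.343, adjusted p = 0.0252), and it lost its call without ACA replicate 1, ACA replicate 3, ENT replicate 1 or ENT replicate 2. Without either of these ENT libraries, 2 genes of the list were higher. The neurexophilins Nxph3 and Nxph4 were both higher. The remaining higher gene, C1ql2, passed the filter through the ENT libraries alone. Nxph3 was at 60.3, 87.7 and 34.5 TPM in ENT, 17.1, 19.99 and 16.04 TPM in ACA and 10.6, 15.3 and 23.6 TPM in FRP, and the mean of ENT was the highest of the 18 adult regions (log2 difference 1.74, SE 0.295, adjusted p = 0.00538). Of 61 tested axon guidance genes, 4 were higher and 7 were lower (18.0%). Nrp2, a semaphorin receptor, was measured at 28.2, 24.3 and 22.7 TPM in ENT, 6.1, 5.84 and 8.62 TPM in ACA and 13.7, 6.94 and 15.4 TPM in FRP, without overlap (log2 difference 1.46, SE 0.234, adjusted p = 0.00421). Ephb6 was the most abundant of the lower genes, at 53.7, 69.9 and 55.3 TPM in ENT, 224, 230.1 and 191 TPM in ACA and 163, 188 and 187 TPM in FRP (log2 difference -1.72, SE 0.109, adjusted p = 4.64e-05). Epha4, Ephb1 and Ephb3 were also lower, with log2 differences of -1.43, -1.09 and -1.13, and Ephb1 was not called without ENT replicate 3. Of 24 tested cadherin genes, Pcdh8 was higher and Cdh6, Pcdh10 and Pcdh11x were lower (16.7%). Without ENT replicate 1, 6 cadherin genes were lower. Pcdh10 was not called without ENT replicate 3 or FRP replicate 3.

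Of 43 tested Wnt and retinoid genes, 1 was higher and 5 were lower, or 14% against 3.37% of all tested genes. Dkk3, which encodes a secreted protein of the Dickkopf family, was the most abundant of those called, at 91.02, 109.6 and 55.3 TPM in ENT, 356, 370.1 and 332 TPM in ACA and 209, 290.0 and 249 TPM in FRP. ENT was below FRP and FRP below ACA, with no overlap of ENT (log2 difference -1.84, SE 0.192, adjusted p = 0.000453). Dkkl1, a relative, was lower at -1.38. Stra6, a receptor that takes up retinol, was the higher gene, at a log2 difference of 1.26. Wnt10a was not called without ENT replicate 1 or 3, and Lgr6 in 7 of the 9 left-out fits, and 3 genes of the list were lower without ENT replicate 1 or ENT replicate 3. Without ENT replicate 3, 2 were higher. Of 36 tested extracellular matrix genes, Dcn and Col23a1 were higher and Col12a1 was lower. The share called was 8.33%, against 3.37% of all genes, and the median was -0.06. Col23a1, a collagen of the cell surface, lost its call without ENT replicate 2 (adjusted p = 0.0568) or ENT replicate 3 (0.0547) in limma, which left Dcn as the 1 higher gene.

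Of 29 tested genes linked to Alzheimer's disease, in which the entorhinal cortex is affected early, only Sorl1, a sorting receptor, was called, or 3.45% against 3.37% of all tested genes. It had 104, 92.7 and 60.98 TPM in ENT, 204, 196 and 201 TPM in ACA and 121, 159.7 and 172 TPM in FRP (log2 difference -1.04, SE 0.167, adjusted p = 0.00421), and lost the call without ENT replicate 3 or FRP replicate 3. Of 20 immediate early genes, which report recent neuronal activity and handling, Egr3 was lower, at -1.17, or 5.0% of the list, and 5 had a negative difference at an adjusted p under 0.05 alone. Without ACA replicate 2, ENT replicate 1, ENT replicate 3 or FRP replicate 2, 2 of these genes were lower. The obesity-associated genes that the study mapped, taken as a list of 190, were called at the rate of all genes: 4 of 174 tested were higher and 2 were lower, or 3.45% against 3.37%. The higher genes were Nrp2, Fign, Tal1 and Lmo1. Fign lost its call without ENT replicate 1, and Lmo1 without ACA replicate 1 or ENT replicate 2. Tal1 passed the filter through the ENT libraries alone and was untested in each fit that left out any of them. The less abundant of the lower genes stayed under 1 TPM in all ENT libraries and passed the filter through the reference libraries alone. Without ENT replicate 1 or ENT replicate 2, 2 of the list were higher. Stxbp6, a regulator of vesicle fusion, was the more abundant of the lower genes, at 24.2, 27.8 and 16.2 TPM in ENT, 53.2, 56.8 and 54.01 TPM in ACA and 68.3, 54 and 83.4 TPM in FRP, without overlap (log2 difference -1.43, SE 0.177, adjusted p = 0.00103). None of the 8 tested genes of monogenic obesity was called, and 1 had an adjusted p under 0.05, Bdnf, the neurotrophin gene, at a log2 difference of -0.83 and an adjusted p of 0.0193 in limma. Without ENT replicate 3, 1 of them was called lower.

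Markers of other regions and cell types were measured beside these genes. Amygdala and claustrum markers, 12 tested, included 2 higher genes, Dcn and Nr4a2, or 16.7% against 3.37% of all tested genes. The median log2 difference of the list was 0.27, and at an adjusted p under 0.05 alone 4 members had a positive and none had a negative difference. Their sum was 487 to 739 TPM in ENT, 498 to 527 TPM in ACA and 380 to 576 TPM in FRP, which overlapped. Ntng2, a netrin-related adhesion protein of this list, was at 40.9, 46.6 and 41.6 TPM in ENT, 30.3, 33.9 and 33.1 TPM in ACA and 35.2, 30.2 and 26.3 TPM in FRP, above all references but under the size threshold (log2 difference 0.45, SE 0.107, adjusted p = 0.0279). Rspo2 was at 24.5, 28.9 and 15.6 TPM in ENT, 28.7, 28.2 and 28.4 TPM in ACA and 11.9, 14.46 and 16.3 TPM in FRP, with overlap and no call. Lypd1 was at 71.2, 87.4 and 78.4 TPM in ENT, 93.2, 95.4 and 92.4 TPM in ACA and 37.6, 29.3 and 36.8 TPM in FRP, highest in ACA. Among 11 tested markers of meningeal fibroblasts, Dcn was the 1 called (9.09%), and 2 were called without ACA replicate 3. The median log2 difference of this list was 0.60, and 0.97 against FRP alone. Igf2, a growth factor gene, had 25.1, 36.9 and 29.1 TPM in ENT, 17.4, 13.2 and 37.3 TPM in ACA and 12.7, 18.2 and 10.5 TPM in FRP, with overlap and no call. Col1a1, a fibrillar collagen, had 2.89, 3.75 and 2.28 TPM in ENT, 3.92, 1.87 and 10.3 TPM in ACA and 1.34, 2 and 3.11 TPM in FRP, with overlap. The summed level of the meningeal list was 688 to 1170 TPM in ENT, 414 to 1455 TPM in ACA and 204 to 665 TPM in FRP. Of 13 tested hippocampal markers, Fibcd1 and C1ql2 were higher and Bok and Amigo2 were lower (30.8%), and the sums overlapped, at 156.5 to 174.3 TPM in ENT and 137.4 to 182.6 TPM in the references. C1ql2 failed the filter when any ENT library was left out, and Amigo2 lost its call in 7 of the 9 left-out fits. Prox1, of the dentate gyrus, was at 2.66, 1.84 and 2.05 TPM in ENT, 2.62, 1.72 and 2.21 TPM in ACA and 2.33, 2.5 and 1.38 TPM in FRP, with overlap.

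No marker of oligodendrocytes (19 tested), their precursors (7), microglia (14), endothelial and mural cells (19), the thalamus and midbrain (7) or blood (5) was called. The summed oligodendrocyte level was 1240 to 1540 TPM in ENT, 858 to 927 TPM in ACA and 1220 to 2700 TPM in FRP. The sum for precursors was 91.3 to 93.3 TPM in ENT, above ACA, at 70.2 to 71.2 TPM, and above FRP, at 67.1 to 82.8 TPM. Among 19 astrocyte markers, Agt and Gfap were higher and Chrdl1 was lower, or 15.8% against 3.37% of all tested genes. Agt, angiotensinogen, was at 17.9, 21.4 and 28.4 TPM in ENT, 3.13, 3.99 and 4.26 TPM in ACA and 2.59, 4.41 and 4.7 TPM in FRP, without overlap (log2 difference 2.41, SE 0.208, adjusted p = 0.000184). ENT ranked 15 of the 18 adult regions for Agt, and the ventromedial hypothalamic nucleus was highest at 408 TPM. Gfap had 78.6, 100.4 and 111 TPM in ENT, 16.9, 8.72 and 39.97 TPM in ACA and 56.5, 72.2 and 69.3 TPM in FRP, and was called against ACA but not FRP. Its call was lost in 7 of the 9 left-out fits, all but those without ACA replicate 2 or ACA replicate 3. Of 4 tested ependymal and choroid plexus markers, 1 was higher (25.0%), Ccdc153, and 2 were without ACA replicate 3. The median log2 difference of those tested was 0.86. The summed level of the whole list was 19.1 to 24.7 TPM in ENT, 7.87 to 16.2 TPM in ACA and 14.2 to 19.1 TPM in FRP. Ttr was at 2.96, 1.54 and 1.69 TPM in ENT, 0.1, 0 and 0.84 TPM in ACA and 0.96, 0.93 and 2.08 TPM in FRP. Otx2 did not exceed 0.05 TPM in ENT. Doc2g, 1 of 7 tested olfactory bulb markers (14.3%), was lower in ENT, but ENT overlapped ACA and its log2 difference was 0.16 against ACA and -4.19 against FRP. It was called in 2 of the 9 left-out fits. The part of these cell types in the differences above was not tested.

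**Figure D5:**
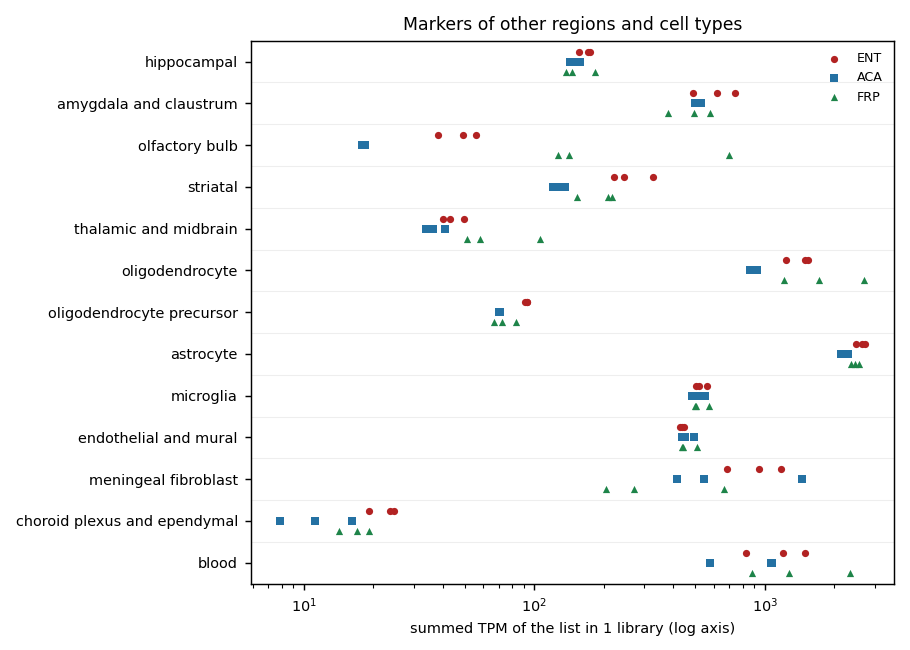
Summed TPM of each list of markers of other regions and cell types, with 1 point per library on a log axis. ENT (red circles) lies above ACA (blue squares) and FRP (green triangles) for the striatal list, at 222 to 328 TPM, and the FRP libraries lie above all others for the olfactory bulb list, with 1 at 699 TPM.

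Each reference region was also compared with ENT on its own. Against ACA, 237 genes (1.55%) were higher and 327 genes (2.14%) were lower in ENT. Those 564 genes were 3.68% of all tested. Against FRP, 160 genes (1.05%) were higher and 279 genes (1.82%) were lower, 439 genes or 2.87% in all. After median-ratio scaling, 47.6% of the genes called against FRP were higher in ENT, against 36.4% here. Of the 205 higher and 311 lower genes of the main comparison, 120 and 192 were called in the same direction against both regions, which share the ENT libraries. Between ACA and FRP themselves, 4 genes (0.0261%) were called, at 1346 genes with an unadjusted p under 0.05. Lypd1 and Wfdc18 were higher in ACA, and Th and Scgn, both abundant in the olfactory bulb, were higher in FRP. Scgn was at 0, 0.09 and 0.07 TPM in ENT, 0, 0.08 and 0 TPM in ACA and 16.5, 4.4 and 34.2 TPM in FRP, with the highest level in FRP replicate 3, and passed the filter through the FRP libraries alone, so that its call is no support for a difference. The count was 0 without ACA replicate 1 or ACA replicate 3, 1 without FRP replicate 1, 2 without ACA replicate 2 or ENT replicate 3, 7 without FRP replicate 3 and 145 without FRP replicate 2. Without ACA replicate 1, 141 genes were higher in ENT than in ACA. A gene called against 1 reference region and not the other is therefore not shown to differ between those regions. The calls of Lypd1, Wfdc18 and Th depended on the libraries too, as none was left without ACA replicate 1 or ACA replicate 3. Th was highest in FRP replicate 3, at 54.03 TPM, and the part of bulb tissue in its level was not tested.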

How the data were processed

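Punches of 3 regions of the adult mouse brain were profiled by strand-specific mRNA sequencing with single reads. The authors quantified reads with kallisto on Ensembl GRCm38 transcripts, after base calling with CASAVA 1.8.2, and deposited gene TPM, the sum over each gene's transcripts. They also deposited estimated counts per transcript, which are not normalized. Of 109282 transcripts, 107987 were matched to a gene (98.8%), and their rounded sums were used in edgeR 4.0.16 and DESeq2 1.42.0 as alternatives only. For 322 gene names the matched transcripts did not give the gene's TPM in at least 1 of the 9 libraries. These names were not left out of the edgeR and DESeq2 totals. The 9 libraries held 15173723 to 20647884 estimated counts. Groups follow the region labels.

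The main test was limma 3.58.1 with a mean trend, in R 4.3.3, on log2(TPM + 0.5) of genes at 1 TPM or more in at least 3 of 9 libraries, with 1 mean per region and the contrast of ENT with the average of ACA and FRP. A gene was called at a Benjamini-Hochberg adjusted p under 0.05 and a log2 difference beyond 1 in either direction. All adjusted p-values in the text are from limma, over the 15307 tested genes. Named genes were the 12 with the largest positive and the 12 with the largest negative difference among called genes without overlap, at a mean of at least 5 TPM on the higher side and without predicted symbols, and for each of 35 gene lists the 4 called members with the largest difference plus members needed to describe the list. Genes called between ACA and FRP were named since they were few, after their values were seen. The members and the lists were chosen with earlier results of these data known. 1 list member is not reported here. Positions are from the GENCODE annotation of GRCm38.

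Alternatives were edgeR, DESeq2, median-ratio scaling, TPM without mitochondrial genes, other pseudocounts and filters, a replicate block, fits to more libraries, and leaving out each library. Leaving out ENT replicate 3 and FRP replicate 3 together was added after the data were seen. The fit was tested on data simulated for ENT against ACA and FRP with 14198 genes tested: 97 of 99 genes changed 4-fold, 31 of 100 changed 2-fold and 2 of 13999 unchanged genes were called, and 77 of the 100 genes changed 2-fold passed the adjusted p alone. A 2-fold change lies at the size threshold itself. The simulated libraries shared the same spread, and ACA and FRP did not differ, unlike the real libraries. The simulated rates need not hold for these data.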

Additional observations from a re-analysis of the deposited data

How the results depend on the processing

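Of the 205 genes higher in ENT than in ACA and FRP, 190 were also called by edgeR, which is 92.7% of the limma calls and 53.4% of the edgeR calls, and 252 of the 311 lower genes were (81.0% and 77.3%). The number of higher genes was 356 with edgeR, 392 with edgeR without a filter on low counts, 374 with DESeq2 and 127 with a filter of 5 TPM. Against ACA alone, where it was 237, these gave 404, 396, 430 and 156. Against FRP alone, where it was 160, they gave 280, 298, 309 and 102. The 4 genes called between ACA and FRP became 16 with edgeR, 132 with edgeR without a filter, 210 with DESeq2, 113 in a fit to 57 adult libraries and 107 in a fit to all 70. The cause of these shifts was not tested.

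Leaving out 1 library at a time gave 146 to 229 higher and 222 to 327 lower genes in the main comparison, 141 to 253 and 241 to 366 against ACA, 113 to 166 and 190 to 312 against FRP, and 0 to 145 between ACA and FRP. Without ENT replicate 3, 134 of the higher and 205 of the lower genes kept the call. Without both ENT replicate 3 and FRP replicate 3 there were 172 higher and 224 lower genes, and 166 lower genes against FRP, where the full fit gave 279. Among the 24 leading genes, 543 of 544 values under the alternatives stayed on the same side of the threshold, and 1 did not, that of Ecel1. Of 2546 values of the 113 named genes, 257 were no longer called and 0 changed sign.

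Whether the replicate numbers pair the samples is not given in the sources used here. Deviations of same-numbered libraries had correlations of -0.103 to 0.0736. Those of differently numbered libraries spanned a like range, -0.111 to 0.0953. Between ENT and FRP, the values were -0.103 to -0.0882 for the same number and 0.00371 to 0.0834 for different numbers. Correlations this small cannot decide the pairing. With a replicate block there were 192 higher and 285 lower genes in the main comparison, 205 and 298 against ACA, 134 and 233 against FRP, and 0 between ACA and FRP.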
